A study of Mus musculus with 3 samples.

Results

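The cytoplasmic mRNA decay machinery was described through 42 genes of the deadenylation, decapping, exosome and nonsense-mediated decay (NMD) steps. They were chosen by name, with earlier results of these data known. They are 42 of the 21938 nuclear-encoded protein-coding genes in the deposited gene tables, and split into 17 deadenylation, 10 decapping, 9 exosome and 6 NMD genes. Their mRNAs were measured by ribosomal RNA-depleted sequencing of total RNA from a cytosolic fraction of macrophages grown from mouse bone marrow (strain C57BL/6J, with no engineered allele named in the labels). Every culture had received Lipid A, the Tlr4-binding part of lipopolysaccharide, at 100 ng/ml for 20 min. The labels number 3 libraries of this 1 condition as biological replicates but give all of them the same donor identifier, so SDs and p-values measure the spread between these samples, which may be technical. Unstimulated cells are not analysed here, and no gene is called induced or repressed.

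Most mRNA decay starts when deadenylases shorten the poly(A) tail. The body of the transcript is then either decapped and digested from its front end by Xrn1, or digested from its tail end by the exosome. NMD is a surveillance route that sends transcripts with an early stop codon into the same enzymes. In activated macrophages these routes set how long short-lived cytokine and immediate-early mRNAs persist, since destabilising proteins such as tristetraprolin recruit the CCR4-NOT deadenylase and the decapping factors.

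Expected counts over all gene rows came to 27277686 in replicate 1, 81497603 in replicate 2 and 37124109 in replicate 3, so replicate 2 was the deepest. A count of 3, which a count of 0 allows, equalled 0.110, 0.0368 and 0.0808 CPM (counts scaled to 1000000) in the same order, for counting error only. All 10 macrophage markers were at 1 TPM (transcript abundance corrected for length, with a sum of 1000000 per library) or more in every library, with summed levels of 4965 to 7143 TPM. Summed levels were 1.53 to 3.51 TPM for 5 neutrophil markers, 0.660 to 1.02 for 5 B cell, 0.940 to 1.05 for 5 dendritic cell, 0.0300 to 0.320 for 5 T cell, 0.0300 to 0.0700 for 5 erythroid and 0.0200 to 0.0900 for 5 fibroblast markers. Of these 30 markers Ngp, a neutrophil granule gene, was the 1 at 1 TPM or more in every library, and Cd3g, Hbb-bs, Slc4a1, Lum and Pdgfra were among those with 0 counts throughout. In bulk RNA, fewer cells of a type and less RNA per cell cannot be told apart. The nuclear RNA Malat1 was at 359, 248 and 763 TPM, highest in replicate 3. Protein-coding genes encoded in the nucleus held 25.0%, 22.0% and 19.6% of TPM in replicates 1, 2 and 3. Levels are therefore also given as rescaled TPM, in which those genes sum to 1000000 in each library.

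Nearly the whole machinery was present. Of the 42 genes, 40 reached 1 TPM in every library, whereas 40.6% of nuclear-encoded protein-coding genes did so. The exceptions were the nuclease gene Pan2 and the adaptor gene Btg3. After rescaling, 42 of 42 reached 1, against a background of 47.6%. In the second transcript table, made directly from the reads, 30 of 42 reached 1 TPM as deposited and 42 of 42 after rescaling. No background share was computed for that table. Nuclear-encoded protein-coding genes held 10.5%, 8.92% and 6.71% of TPM in that table. In the gene tables the summed level of the members was 1204, 1180 and 1204 rescaled TPM, or 0.120%, 0.118% and 0.120% of protein-coding TPM. On the deposited scale the same sums were 300.5, 259.5 and 236.5 TPM, highest in replicate 1 and lowest in replicate 3. The level of a single gene ran over a 33.9-fold range, with Ddx6 at the top and Pan2 at the bottom by mean. Against the median protein-coding gene detected at 1 TPM in every library, which stood at 31.4 rescaled TPM, 17 of the 42 were higher.

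**Figure D1:**
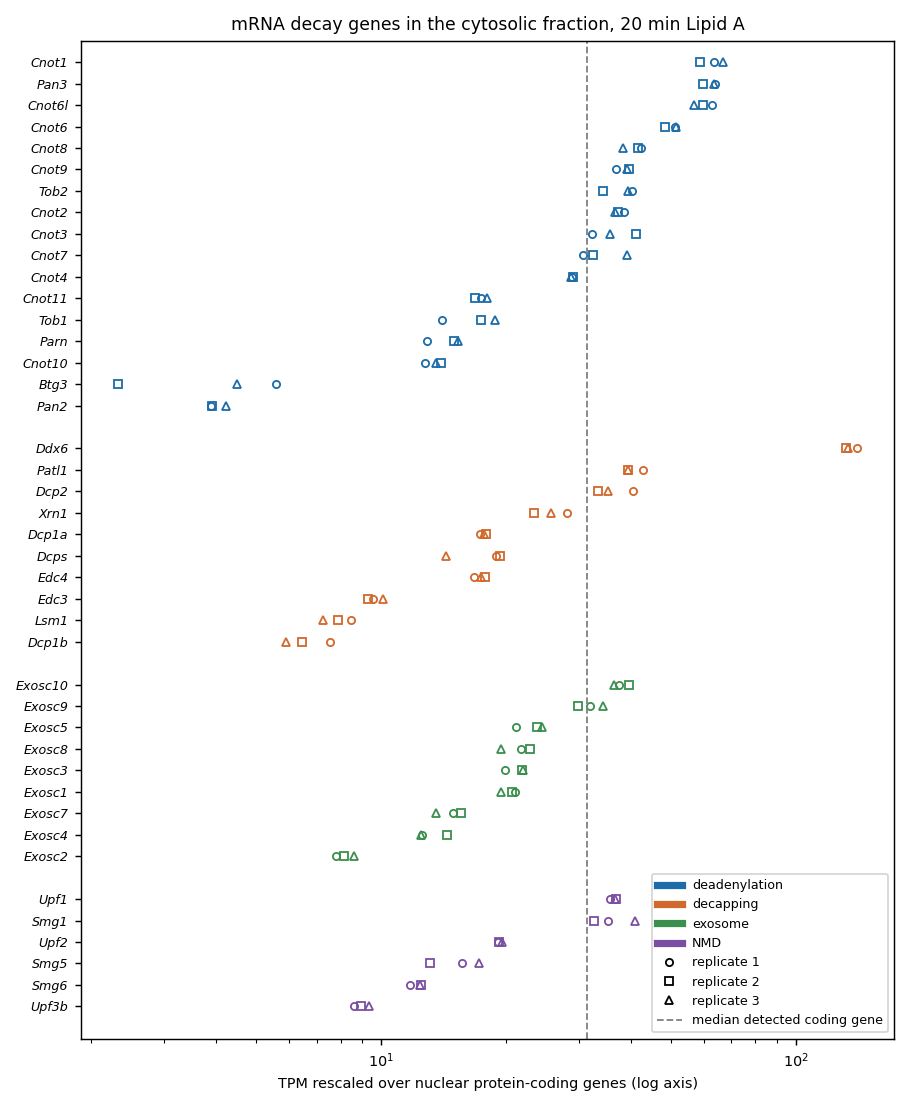
Rescaled TPM of each of the 42 decay genes on a log axis, grouped by class and ordered within a class by mean, with 1 symbol per library. Ddx6 stood alone at 133 to 141 rescaled TPM, Btg3 had the widest scatter, and most of the other genes kept their 3 libraries close together.

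Deadenylation genes had the highest class median. It was 32.2, 34.4 and 36.8 rescaled TPM in replicates 1, 2 and 3, a mean of 34.5 ± 2.28 (SD, n = 3). Cnot1, the scaffold of the CCR4-NOT complex (chr8:95719451-95807464, minus strand, mm10), was at 63.7, 58.7 and 66.7 rescaled TPM, from 5232, 13965 and 6438 expected counts. Pan3, the adaptor of the PAN2-PAN3 deadenylase that binds the poly(A)-binding protein, was at 63.9, 59.8 and 63.4. The libraries of both genes overlapped, so their order was within the spread. Pan2, the nuclease that Pan3 partners, was at 0.970, 0.860 and 0.830 TPM, or 3.89, 3.91 and 4.23 rescaled TPM. Pan3 and Pan2, partners in 1 complex, thus stood near opposite ends of the class.

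Within CCR4-NOT, the subunits without nuclease activity spread out below Cnot1. The structural subunits Cnot2 and Cnot3 averaged 37.6 ± 0.947 and 36.4 ± 4.53 rescaled TPM (SD, n = 3). Cnot9, which contacts the silencing protein GW182, was at 38.6 ± 1.50 and the ubiquitin ligase Cnot4 at 28.9 ± 0.195. Cnot10 and Cnot11, which form a module at one end of Cnot1, were the lowest subunits at 13.4 ± 0.620 and 17.4 ± 0.553. In each library Cnot1 exceeded every one of these subunits. Parn, a poly(A)-specific nuclease outside the complex, was at 14.4 ± 1.29.

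The nuclease subunits come in paralog pairs, and the pairs were close. Cnot6l and Cnot6 encode alternative nucleases of the Ccr4 type. Cnot6l was at 15.7, 13.1 and 11.2 TPM, and Cnot6 at 12.8, 10.7 and 10.1 TPM. Cnot6l was higher in 3 of 3 libraries, with a mean log2 ratio of 0.25 ± 0.09, or 0.50 ± 0.13 in the second transcript table. Cnot7 and Cnot8 encode nucleases of the Caf1 type. Cnot7 was at 7.68, 7.14 and 7.70 TPM, and Cnot8 at 10.6, 9.18 and 7.55 TPM. Their mean log2 ratio was -0.26 ± 0.26 and its sign differed between libraries, Cnot8 being higher in replicates 1 and 2 and Cnot7 in replicate 3. These levels cover all transcripts of a gene. Transcripts not annotated as protein-coding held 13.7%, 18.8% and 25.7% of Cnot7 TPM in replicates 1, 2 and 3, and 0% of Cnot8 TPM. The ratio over protein-coding transcripts alone was not computed.

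Tob1, Tob2 and Btg3 encode adaptors of the BTG/TOB family, which bind Caf1 nucleases. Tob1 was at 3.50, 3.84 and 3.70 TPM, and Tob2 at 10.05, 7.56 and 7.75 TPM, so Tob2 was higher in every library (mean log2 ratio of Tob1 over Tob2 -1.19 ± 0.29). After rescaling Tob1 was at 14.0, 17.5 and 18.8, lowest in replicate 1. Btg3 (chr16:78332637-78377192, minus strand) was at 1.39, 0.510 and 0.880 TPM, or 5.57, 2.32 and 4.48 rescaled TPM. It had the fewest counts of all 42 genes, with 54, 101 and 69. Its low value was in replicate 2, the deepest library.

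The exact two-sided sign-flip permutation test over 3 libraries cannot give a p below 0.25, so none of the 5 paralog pairs compared could pass. The exact test gave p = 0.25 for Cnot6l over Cnot6, Dcp1a over Dcp1b, Tob1 over Tob2 and Upf3b over Upf3a. Cnot7 over Cnot8 gave p = 0.50 in the same exact test. Reads that paralogs share were divided by the authors' estimate, which can move these ratios.

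**Figure D2:**
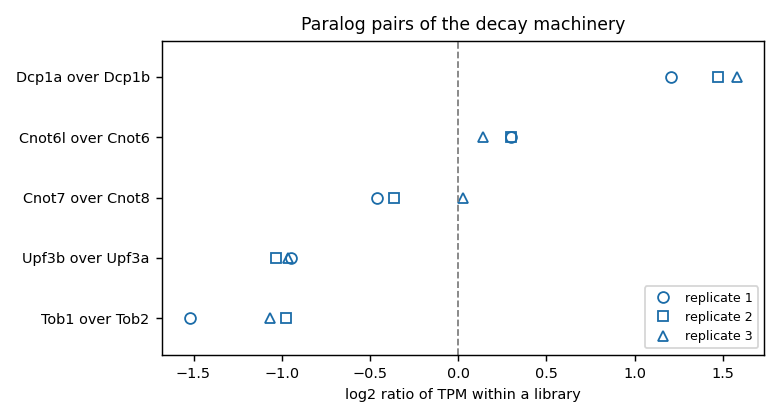
Log2 ratio of TPM within each library for the 5 paralog pairs, 1 symbol per library, with the dashed line at equal levels. Dcp1a over Dcp1b lay at 1.20 to 1.58 and Tob1 over Tob2 at -1.52 to -0.98, while Cnot7 over Cnot8 crossed 0.

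Decapping genes had a class median of 18.1, 18.6 and 17.5 rescaled TPM in replicates 1, 2 and 3 (mean 18.1 ± 0.551, SD, n = 3), but held the highest single gene. Ddx6, the helicase that links deadenylation and silencing complexes to decapping (chr9:44604892-44640731, plus strand), was at 35.2, 29.2 and 26.3 TPM, from 10335, 28022 and 11982 counts. After rescaling it was at 141, 133 and 134, above 87.3% of detected protein-coding genes. Its lowest library was above the highest library of each of the other 41 genes. Patl1, a scaffold that bridges the Lsm ring and the decapping enzyme, came next at 42.8, 39.5 and 39.4 rescaled TPM.

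Dcp2, the enzyme that removes the cap, was at 10.1, 7.33 and 6.93 TPM, or 36.4 ± 3.71 rescaled TPM (SD, n = 3), highest in replicate 1 on both scales. Xrn1, the exonuclease that digests decapped mRNA, averaged 25.7 ± 2.36 rescaled TPM. Edc4, a scaffold for Dcp2, was at 17.3 ± 0.522 and the decapping enhancer Edc3 at 9.67 ± 0.415. Lsm1, which distinguishes the cytoplasmic Lsm ring from the nuclear one, was at 7.85 ± 0.612.

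Dcp1a and Dcp1b encode alternative activators of Dcp2. Dcp1a was at 4.33, 3.94 and 3.47 TPM, and Dcp1b, the lowest gene of the class, at 1.88, 1.42 and 1.16 TPM. Dcp1a was higher in 3 of 3 libraries by a mean log2 ratio of 1.42 ± 0.19 (SD, n = 3), a 2.67-fold difference. Dcps, the scavenger enzyme that hydrolyses the cap left over by exosome digestion, was at 4.72, 4.26 and 2.81 TPM. After rescaling Dcps was at 18.9, 19.4 and 14.3, with replicate 3 low on both scales.

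Exosome genes were close in level, with a 4.64-fold range between the highest and the lowest mean, where NMD genes spanned 4.05-fold, deadenylation genes 15.7-fold and decapping genes 20.5-fold. The class median was 21.1, 21.9 and 19.5 rescaled TPM in replicates 1, 2 and 3, a mean of 20.8 ± 1.21 (SD, n = 3). Exosc10, a catalytic subunit found mostly with the nuclear exosome (chr4:148558429-148582401, plus strand), led at 37.6, 39.7 and 36.4 rescaled TPM. Exosc9, a subunit of the ring, was at 31.9, 29.9 and 34.3. The libraries of Exosc10 and Exosc9 did not overlap. Exosc2, one of the cap subunits that guide RNA into the channel, was lowest at 7.77, 8.14 and 8.60.

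The other ring and cap subunits lay between these. Among the ring subunits, Exosc5 averaged 23.1 ± 1.75 rescaled TPM, Exosc8 21.4 ± 1.72, Exosc7 14.7 ± 0.996 and Exosc4 13.1 ± 1.10 (SD, n = 3). Among the cap subunits, Exosc3 was at 21.3 ± 1.19 and Exosc1 at 20.4 ± 0.827. The libraries of Exosc8, Exosc3 and Exosc1 overlapped. Counts of this class ran from 137 to 3575 per library, and the median SD that counting alone would give, 0.081 on the log2 scale, was the highest of the 4 classes.

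NMD genes had the lowest class median by mean, at 17.4, 16.2 and 18.4 rescaled TPM in replicates 1, 2 and 3 (mean 17.3 ± 1.14, SD, n = 3). In replicate 3 the decapping median was lower, at 17.5. Upf1, the helicase at the centre of the pathway (chr8:70331525-70353278, minus strand), was at 35.6, 36.9 and 36.7. Smg1, the kinase that phosphorylates Upf1, was at 35.3, 32.6 and 40.9, from 6000, 16240 and 8106 counts. The values of Smg1 spanned those of Upf1. Upf2, which joins Upf1 to Upf3 proteins, was at 19.3 ± 0.257.

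The effectors that act on phosphorylated Upf1 were lower. Smg5, an adaptor that leads to deadenylation and decapping, was at 15.3 ± 2.11 rescaled TPM, and Smg6, the endonuclease that cuts near the stop codon, at 12.2 ± 0.421 (SD, n = 3). Upf3b, which binds the exon junction complex, was the lowest at 2.15, 1.97 and 1.84 TPM. Its paralog Upf3a, which is not among the 42, was at 4.14, 4.03 and 3.59 TPM. Upf3a was higher in 3 of 3 libraries, and the log2 ratio of Upf3b over Upf3a was the tightest of the 5 pairs at -0.98 ± 0.05.

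The classes were then compared within each library, where the share of TPM held by other RNAs cancels out. The level of a class was the median log2 TPM of its members minus that of detected protein-coding genes. Deadenylation stood above that reference in every library, by 0.05, 0.13 and 0.23 (mean 0.14 ± 0.09, SD, n = 3). The other classes stood below it in every library, the exosome by a mean of -0.59 ± 0.09, decapping by -0.79 ± 0.04 and NMD by -0.86 ± 0.11. Counts of genes above the median detected coding gene were 10 of 17 for deadenylation, 3 of 10 for decapping, 2 of 9 for the exosome and 2 of 6 for NMD.

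Deadenylation exceeded decapping by 0.83, 0.88 and 1.07 on the log2 scale, the exosome by 0.61, 0.65 and 0.91, and NMD by 0.89, 1.11 and 1.00. Each of these 9 differences was positive, but they share the deadenylation values and are not independent. The spread between the genes of a class is not part of them. Decapping lay below the exosome in 3 of 3 libraries by a small amount (-0.20 ± 0.04, SD, n = 3). This order turned round with the mean over members, where decapping was at -0.60 and the exosome at -0.68, and with the other genes of each route added, where they were at -0.37 and -0.61. Decapping minus NMD was 0.06, 0.23 and -0.07, and these classes were not separated beyond their spread. The exosome exceeded NMD by 0.28, 0.46 and 0.08.

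With the mean over members in place of the median, deadenylation stood below the reference, at -0.29, and was still the highest of the 4 classes. Measured against all coding genes above 0 TPM, decapping stood at 0.044 and the exosome at 0.24, both above that lower reference.

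**Figure D3:**
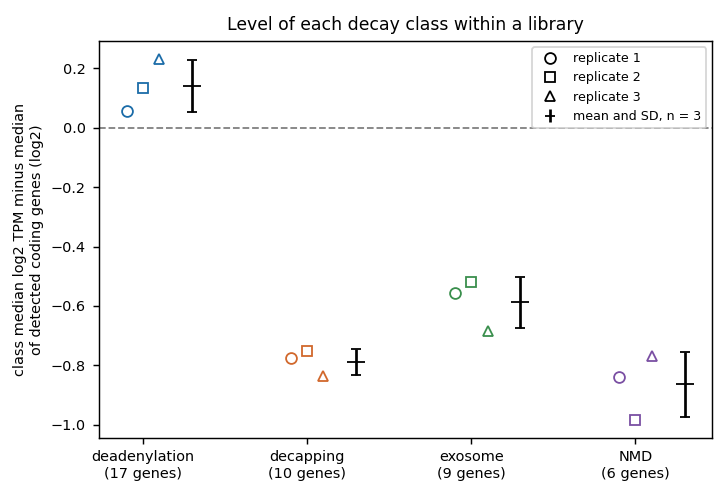
Class median of log2 TPM minus the median of detected protein-coding genes, in each library (symbols) and as mean and SD (black bars). Deadenylation lay between 0.05 and 0.23 and the other 3 classes between -0.98 and -0.52.

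Differences between libraries were smaller after rescaling for most members, as they were for most detected coding genes. On deposited TPM, 37 of 42 genes were highest in replicate 1, as were 82.2% of detected protein-coding genes. Measured as the SD of log2(TPM + 1) across the 3 libraries, the members had a median of 0.16 and detected coding genes 0.16. After rescaling it was 0.073 and 0.095, and the SD was smaller than on deposited TPM in 33 of 42 members (75.0% of detected coding genes). Then 13 members were highest in replicate 1, 13 in replicate 2 and 16 in replicate 3. By class, the median SD after rescaling was 0.073 for deadenylation, 0.083 for decapping, 0.093 for the exosome and 0.050 for NMD. For 12 of 42 genes the SD was below the value that counting alone would give, and the share among detected coding genes was not computed. The counting value has no 1 added before the log, which lowers only the observed SD of genes with low TPM. This count is therefore not read as a result about the members.

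The largest SDs after rescaling were 0.51 for Btg3, 0.23 for Dcps and 0.21 for Tob1, where counting alone would give 0.17, 0.082 and 0.060. On deposited TPM the SD was 0.33 for Btg3, 0.31 for Dcps and 0.053 for Tob1. It was larger after rescaling for Tob1 and smaller for Dcps. Btg3, at 1.39, 0.510 and 0.880 TPM, lay near the 1 added before the log, which narrows its SD on deposited TPM. Its SDs on the deposited and rescaled scales are therefore not compared. The counting value of Btg3 uses all counts of the gene. Its transcript Btg3-201 was at 0.770, 0.510 and 0.680 TPM in replicates 1, 2 and 3. Btg3-202 was at 0.610, 0 and 0.190 TPM, from only 6, 0 and 3 counts. The part of Btg3-202 in the SD of Btg3 was not tested. Btg3 was the 1 gene of 42 at 0.25 or more, a limit that 92.6% of detected coding genes stayed under. Smg5 (0.19), Cnot7 (0.18), Cnot3 (0.17) and Smg1 (0.16) followed, Cnot7 having been at 0.054 on deposited TPM. Cnot7, Smg1, Smg5 and Tob1 were highest after rescaling in replicate 3, where Malat1 was also highest. The share of TPM outside protein-coding transcripts was 7.93%, 10.3% and 26.5% for Smg5 in replicates 1, 2 and 3. In the same order it was 13.7%, 18.8% and 25.7% for Cnot7, 2.84%, 1.67% and 6.10% for Smg1, and 0% for Tob1. The part of nuclear RNA or of such transcripts in these levels was not tested.

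**Figure D4:**
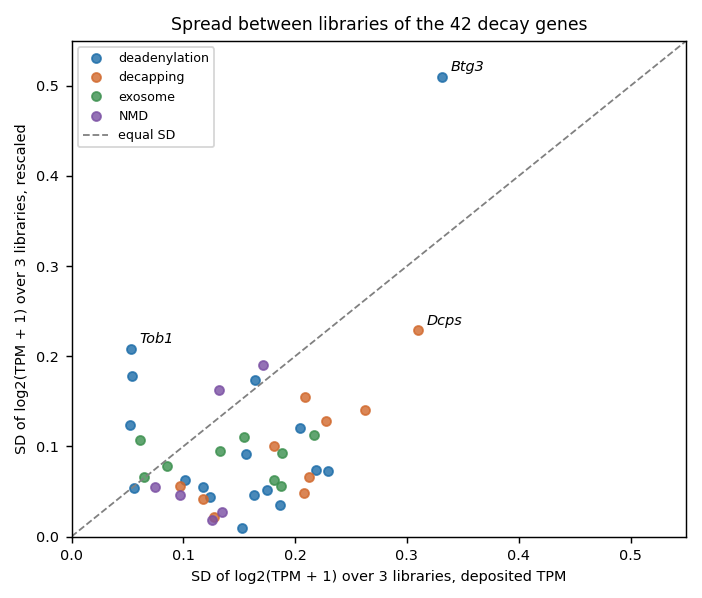
SD over 3 libraries of log2(TPM + 1) on deposited TPM (x axis) and on rescaled TPM (y axis), 1 point per gene. Of the 42 points 33 lie under the line of equal SD, where 75.0% of detected coding genes would also lie. Btg3, Dcps and Tob1 are the highest on the y axis.

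Transcript tables gave a second view of the same genes. GENCODE M21 classes each transcript as protein_coding, retained_intron, nonsense_mediated_decay (an annotated early stop) or processed_transcript. Of the summed TPM of the 42 genes, 92.8%, 92.7% and 90.4% was in protein_coding transcripts in replicates 1, 2 and 3. Retained_intron transcripts held 2.95%, 2.89% and 4.70%, highest in replicate 3, and the nonsense_mediated_decay class 2.96%, 3.08% and 3.13%. In replicate 3 Malat1 was highest as well, and its relation to the retained introns was not tested.

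Per gene, the median share outside protein_coding transcripts was 4.13% for the members and 2.42% for detected coding genes. A share above 10% was seen in 11 of 42 members (26.2%) and in 27.0% of detected coding genes, so this count is near the background. More than 10% in the nonsense_mediated_decay class was seen in 5 members (11.9%) and in 7.55% of detected coding genes. The leading transcript was protein_coding in 42 of 42, and 41 of 42 had the same leading transcript in the second table. The exception was Cnot6l. Counts of leading transcripts were not made for detected coding genes.

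By its mean in the first table Edc3 had the largest share outside protein_coding transcripts, all of it in 1 transcript of the nonsense_mediated_decay class. In replicate 2 Cnot3 and Smg6 were higher, and in the second table Pan3 was. Edc3-202 held 37.2%, 24.9% and 42.0% of the gene's TPM, from 182, 345 and 267 counts, and the protein-coding Edc3-201 held 58.6%, 72.2% and 54.5%. The second table gave Edc3-202 41.9%, 30.5% and 38.8%. Replicate 2 had the lowest share in both tables. Edc3-202 lacks exon 3 of the 7 exons of Edc3-201, at chr9:57715948-57716267 on the plus strand. That exon has 320 bases, which is not a multiple of 3. The lines below give the junctions from the M21 transcript sequences, with the first and last bases of exon 3 in capitals in the Edc3-201 lines and the annotated stop codon of Edc3-202 in capitals in its line. They span chr9:57713547-57727200.
Edc3-201, into exon 3: agaagtcacctttcgGGCAGGTGATATTAC
Edc3-201, out of exon 3: GTCGGCACAACTCCTggtcatctagtagca
Edc3-202, exon 3 absent: agaagtcacctttcgggtcatcTAGtagca
In Edc3-202 the stop codon starts after 7 bases of the next exon, at chr9:57727193-57727195, and 3 exon junctions follow it. Edc3-202 is annotated from 57708555 to 57751403 and Edc3-201 from 57708540 to 57752499, so the forms also differ at both ends. The 3′ part of Edc3 overlaps exons of Clk3 on the other strand, which was at 9.40 TPM on average. This overlap covers 1284 of the 5708 bases of Edc3-201 (22.5%) and 780 of the 4277 bases of Edc3-202 (18.2%). Whether counting used strand is not stated in these sources, and the part of Clk3 reads in these shares was not tested.

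Cnot3 had the next highest mean in the first table, with 27.9%, 38.1% and 32.1% outside protein_coding transcripts, all in the retained_intron class. The second table gave it 19.1% ± 0.876 (SD, n = 3), below Pan3 and Cnot2 among others. Of its retained_intron transcripts, Cnot3-205 was alike in both tables, with 16.2%, 12.6% and 12.0% in the first and 16.7%, 15.6% and 15.5% in the second. Cnot3-202 was not, with 10.4%, 24.7% and 18.1% in the first table and 0%, 3.19% and 0% in the second. Cnot3-205 keeps the intron after exon 11 of Cnot3-201, 80 bases at chr7:3655953-3656032 on the plus strand. It is shown in capitals in its line, with the spliced form under it, both within chr7:3655938-3656047.
Cnot3-205, intron kept: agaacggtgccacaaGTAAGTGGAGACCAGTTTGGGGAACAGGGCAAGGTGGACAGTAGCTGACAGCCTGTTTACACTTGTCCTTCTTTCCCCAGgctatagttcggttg
Cnot3-201, spliced: agaacggtgccacaagctatagttcggttg
The kept intron starts with GT and ends with AG. Cnot3 overlaps 433 bases of Leng1 on the other strand, which averaged 3.19 TPM.

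Pan3 followed, with 26.7%, 20.6% and 30.0% outside protein_coding transcripts. The share was divided between retained introns (11.9% ± 4.99, SD, n = 3) and the nonsense_mediated_decay class (11.6% ± 0.510), over 23 annotated transcripts. The second table gave a higher share, 41.2% ± 8.21. Its leading transcript, Pan3-201, held 23.1% of the gene's TPM, so no single form dominated.

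Smg6, itself the NMD endonuclease, is given as an example chosen after its values were seen, since the tables disagree on it. Smg6-202, of the nonsense_mediated_decay class, held 17.8%, 23.9% and 20.5% of the gene's TPM in the first table, from 101, 420 and 153 counts. In the second table it was listed at 0 in every library. It lacks exon 9 of the 19 exons of Smg6-201, 62 bases at chr11:74981852-74981913 on the plus strand. The exon's ends are in capitals in the lines that follow, which lie within chr11:74946205-74990084.
Smg6-201, into exon 9: ctgagtcccagtgatCTGAACAAAAGGTTC
Smg6-201, out of exon 9: GTTTACCCGGATTGGgatggagacattccc
Smg6-202, exon 9 absent: ctgagtcccagtgatgatggagacattccc
The annotated stop codon of Smg6-202 starts after 24 bases of the next exon, at chr11:74990094-74990096, with 9 junctions after it. Its annotated first base is at 74930520, where Smg6-201 starts at 74925823, so the forms also differ at their 5′ ends.

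**Figure D5:**
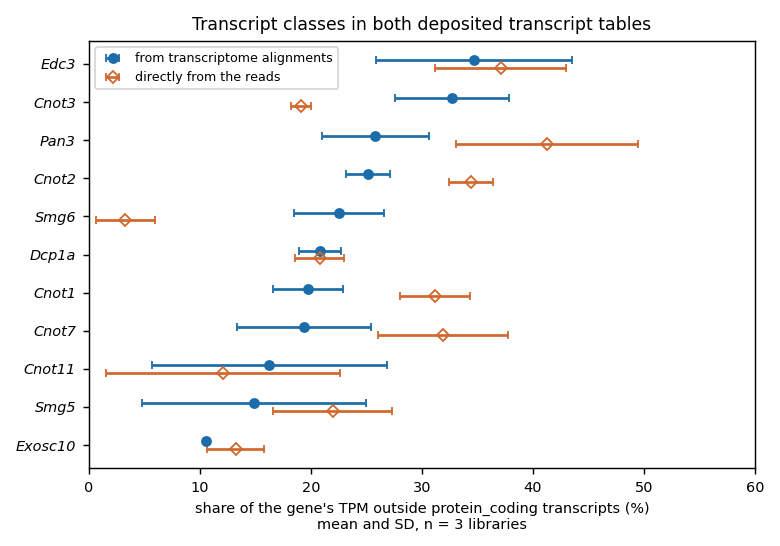
Share of each gene's TPM outside protein_coding transcripts for the 11 members above 10%, as mean and SD over 3 libraries, in the table from transcriptome alignments (filled circles) and the table made directly from the reads (open diamonds). Edc3 and Dcp1a gave nearly the same share in both, at 34.7% and 37.1% and at 20.9% and 20.8%, while Smg6 stood at 22.5% and 3.29%.

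Other genes of the same routes were mostly present too. Of 46 such genes, 42 reached 1 TPM in every library, with 8 of 10 for deadenylation, 12 of 13 for decapping, 11 of 12 for the exosome and 11 of 11 for NMD, beside 40.6% of protein-coding genes. The cytoplasmic poly(A)-binding protein gene Pabpc1 was the highest of all 46 at 203, 175 and 146 TPM. The highest in their own classes were, for decapping, Pnrc1, a relative of the decapping coactivator Pnrc2, at 48.4, 35.2 and 30.2 TPM, for the exosome, Wdr61 of the Ski complex at 9.01, 8.78 and 7.54 TPM, and for NMD, Eif4a3, the helicase of the exon junction complex, at 28.7, 25.0 and 24.2 TPM. Magohb, a paralog of another exon junction subunit, was the lowest of the NMD group at 2.58, 1.76 and 1.31 TPM.

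The exceptions were 4 genes. Btg4, which acts in oocytes, had 0 counts. Patl2, an oocyte paralog of Patl1, was at 0.140, 0.160 and 0.160 TPM. Noct, a relative of the Ccr4 nucleases, was at 1.30, 0.970 and 1.25 TPM. Exosc6, a ring subunit of the exosome, had 0 counts in every library in both tables. Its single exon (chr8:111056339-111057664, plus strand) lies wholly within an exon of the transcript Aars-201 on the same strand, all 1326 bases of it, and Aars averaged 8.35 TPM. Reads of this stretch fit both annotations, so the levels of Exosc6 and Aars cannot be told apart there.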

How the data were processed

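The 3 libraries of rRNA-depleted total RNA were grouped and numbered as the labels give them. Per the file headers and the deposited notes, 1 gene table and 1 transcript table per library rest on transcriptome alignments, while another transcript table was made from the reads without them, all on mm10 with GENCODE M21. No aligner or quantifier is named in these sources. Expected counts in the deposited tables are read estimates that can hold fractions. The authors' TPM corrects for transcript length and has the same sum in each library, so other abundant RNAs lower the TPM of every mRNA.

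The members, gene lists, classes, paralog pairs and alternatives were chosen with earlier results of these data known. Genes were named by rule: the 2 highest and the lowest of each class by mean TPM, both genes of each pair, the 3 members with the largest SD after rescaling, and the 3 with the largest share outside protein_coding transcripts. Of the other pathway genes, the highest and the lowest of each class and any under 1 TPM in a library were named. Further genes are examples. Single values of some cell type markers are not reported here.

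TPM was rescaled to 1000000 over nuclear-encoded protein-coding genes. Spread was the SD over libraries of log2(TPM + 1). Counting-only SDs came from the expected counts. A gene was called detected at 1 TPM in every library. A single condition allows no test between groups, and the paralog ratios had an exact sign-flip permutation test over libraries. Expected counts were rounded for edgeR 4.0.16 (TMM factors, prior count of 2) and DESeq2 1.42.0 (size factors), which served for scaling only. The spread measure was tested on simulated counts of well-counted genes, which leave out Btg3, with a smaller value than 1 added before the log. The measure as used for genes with low TPM was not tested. Junction sequences were cut from the M21 transcripts with 15 bases on each side.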

Additional observations from a re-analysis of the deposited data

How the results depend on the processing

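Of 144 alternative values, 112 kept their direction and side of the test or, where there was no test, stayed within the spread between libraries or 1.5 times the count. A further 29 moved beyond that and 3 reversed. The paralog ratios all kept their direction, but none could change side, as p of the exact sign-flip test cannot go below 0.25. Some changed in size and were still counted as kept, as Dcp1a over Dcp1b was, at 1.42 in TPM and 2.405 in expected counts. Class levels on rescaled TPM equal those on deposited TPM by construction. At 5 TPM 19 of the 42 genes were detected in every library, and 30 at 1 TPM in the second table, with no background share computed for either. Class levels below are log2 differences from detected protein-coding genes. With the mean over members they were -0.29 for deadenylation, a reversal, -0.60 for decapping, -0.68 for the exosome and -0.74 for NMD. Against all coding genes above 0 TPM they were 0.97, 0.044, 0.24 and -0.032 in the same order, and decapping and the exosome reversed. In the second transcript table deadenylation was at 0.23, decapping at -0.88 and NMD at -0.98, and with the other pathway genes added these were at 0.0097, -0.37 and -0.69 and the exosome at -0.61. With a pseudocount of 1 decapping, exosome and NMD were at -0.66, -0.50 and -0.72. Without Parn, Btg3, Tob1 and Tob2 deadenylation was at 0.30. The rescaled deadenylation median was 38.0 in the second table, an alternative added after the data were seen. The cause of these shifts was not tested. Deadenylation was the highest class in each of these alternatives that covered all 4 classes.

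The median SD of the members was 0.16 on deposited TPM, 0.073 after rescaling, 0.081 after TMM, 0.083 with DESeq2 size factors and 0.086 in the second table rescaled. Leaving out 1 replicate gave 0.060, 0.061 and 0.076 after rescaling, a setting added after the data were seen, and 0.10 to 0.18 on deposited TPM. The median share outside protein_coding transcripts was 6.59% in the second table, where detected coding genes had 4.71%. Among single genes, that table gave 19.1% for Cnot3, 41.2% for Pan3 and 34.4% for Cnot2, which had 25.2% in the first.

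No paired analysis was possible because all libraries belong to 1 group. Counting error was largest for Btg3. The smallest p that 3 libraries allow in an exact sign-flip test is 0.25.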

Other observations

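Btg2, an antiproliferative adaptor of the same family as Btg3 and a known immediate-early gene, was the second highest of the 46 other pathway genes and is named here after its values were seen. It was at 66.6, 30.6 and 53.5 TPM in replicates 1, 2 and 3, or 267, 139 and 272 rescaled TPM, from 8469, 12789 and 10650 counts. Its SD of log2(TPM + 1) after rescaling was 0.55, where counting alone would give 0.014. Btg3 was likewise lowest in replicate 2, while Btg1 was at 85.6, 75.0 and 70.6 rescaled TPM, lowest in replicate 3. The BTG genes of these libraries thus had no common order.

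Some genes differed between the gene table and the second table after rescaling. Noct was at 12.4 rescaled TPM in the second table and at 5.33 ± 0.983 (SD, n = 3) in the gene table, a log2 difference of 1.22. Among the 42 members the largest such difference was 0.39, for Cnot6l, which was also the member whose leading transcript differed between the tables.

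Lsm14a, which binds Ddx6 in P-bodies, was at 104 ± 1.63 rescaled TPM (SD, n = 3), next below Ddx6 among decapping genes without counting Pnrc1 and Pnrc2. Its SD after rescaling was 0.022, below the 0.024 that counting alone would give. Lsm1 was at 7.85 rescaled TPM. The subunits that the cytoplasmic and the nuclear Lsm rings share were at 18.2 for Lsm2, 51.3 for Lsm3, 61.0 for Lsm4, 19.6 for Lsm5, 26.6 for Lsm6 and 59.3 for Lsm7, all higher than Lsm1.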
